A study of Homo sapiens with 10 samples.

Results

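The genes described here encode 10 enzymes that make serine and pass its carbon to folate: PHGDH, PSAT1 and PSPH of serine synthesis, the cytosolic folate enzymes SHMT1 and MTHFD1, and the mitochondrial folate enzymes SHMT2, MTHFD1L, MTHFD2, MTHFD2L and ALDH1L2. They are 10 of the 22626 rows of the deposited count table, found by gene symbol. The 10 were selected on earlier results of the same comparison in the same libraries, so their values in high glucose (HG) against control are given as a description, with no test. Of the 10, 5 work in the cytosol and 5 in mitochondria, and all 10 passed edgeR's filter on low counts.

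ARPE-19 is an established human cell line derived from the retinal pigment epithelium (RPE). Its cells were grown for 48 h in medium with D-glucose at 37.5 mM (HG, n = 5) or, as the control, at 5.5 mM with mannitol added to 32 mM (n = 5), and total RNA was sequenced. Mannitol is a sugar alcohol used to balance the osmotic load of added glucose. Total counts per library were 33039260 to 45864176 in the control group (median 41468270) and 32448991 to 44400714 in the HG group (median 39867119). Control libraries are named by their replicate number. The labels tie each HG column to its group but not to a given sample, so HG libraries keep their column names, HG_1 to HG_5. The methods speak in general of independent experiments, but no source says that these libraries came from separate cultures, so p-values measure only the spread between these samples, which may be technical. In bulk samples such as these, fewer cells of a kind and less RNA per cell cannot be told apart.

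Serine is made from an intermediate of glycolysis in a chain of steps run by PHGDH, PSAT1 and PSPH. SHMT1 in the cytosol and SHMT2 in mitochondria then move a carbon from serine to tetrahydrofolate, leaving glycine, and the MTHFD enzymes carry that carbon between oxidation states on each side of the mitochondrial membrane, with formate as the shuttle. The carbon feeds the synthesis of purines, thymidylate and methionine, and in the eye the RPE also carries folate from the choroid to the neural retina.

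HG_1 and control replicate 2 stood apart from the other libraries in how read counts followed base composition. On the log2 scale of CPM (counts scaled to a common library size), their values increased by 0.1885 and 0.1696 for every 10 percentage points of GC content in the transcript, and the slopes of the other libraries lay between -0.09164 and -0.005192. Among the members, the transcripts of PHGDH (58.3% GC) and SHMT2 (55.2%) were the richest in G and C, and those of MTHFD2L (37.0%) and MTHFD2 (41.4%) the poorest. The log2 fold changes of all members are therefore also given without these 2 libraries.

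Markers of the RPE were checked against the label of the line. Of 12 such genes, 9 passed the filter, and the most abundant was the keratin KRT8, at 1864 ± 155 CPM in control (SD, n = 5) and 1211 ± 175 CPM in HG. OTX2, a transcription factor of RPE fate, was at 96.2 ± 3.98 CPM in control and 88.8 ± 1.31 in HG. Genes of mature, pigmented RPE were mixed. RLBP1 was at 11 ± 1.51 CPM in control and 8.79 ± 1.44 in HG, PMEL and TYRP1 passed the filter at lower levels, and 3 were not tested: RPE65 had 6 counts in control replicate 2 and 0 in every other library, DCT had 0 to 17 counts and TYR 0 to 34. BEST1, a chloride channel of RPE, varied more than any other marker within the control group, with 8707 and 18223 counts in control replicates 1 and 4 and 24 to 234 in the other controls. By edgeR's adjusted p, 3 RPE markers were lower in HG (KRT8, KRT18 and PMEL) and 0 higher, and the summed CPM of the 12 was 2833 to 3591 in control and 1796 to 2470 in HG. Of 9 markers of other cells, CDH5 had 0 counts in all libraries, which allows up to 0.0669 to 0.0912 CPM by counting error alone, and PTPRC and PECAM1 had at most 4 counts. The most abundant of the 9 was PDGFRB. CD68 was higher in HG (70.3 ± 10.5 against 114 ± 17 CPM), PDGFRB (177 ± 14.7 against 103 ± 8.76) and ACTA2 lower, and the summed CPM of the 9 was 296 to 318 in control and 239 to 314 in HG. The part of these marker differences in the results for the members was not tested.

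Across all genes, 14936 rows were tested with edgeR's quasi-likelihood test and Benjamini-Hochberg adjustment. An adjusted p under 0.05 was found for 2303 rows (15.4%), of which 1138 (7.62%) were higher and 1165 (7.80%) lower in HG. The CPM of all HG libraries lay above all control libraries in 1006 rows (6.74%). In the same fit, 7 of the 10 members were called, all as higher in HG, and the same number had groups that did not overlap. Since the members were chosen by this contrast, nothing is read from these counts. Their median log2 fold change was 0.27, beside 0.00 over all rows tested. Without HG_1 and control replicate 2, 4035 rows and again 7 members were called.

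**Figure D1:**
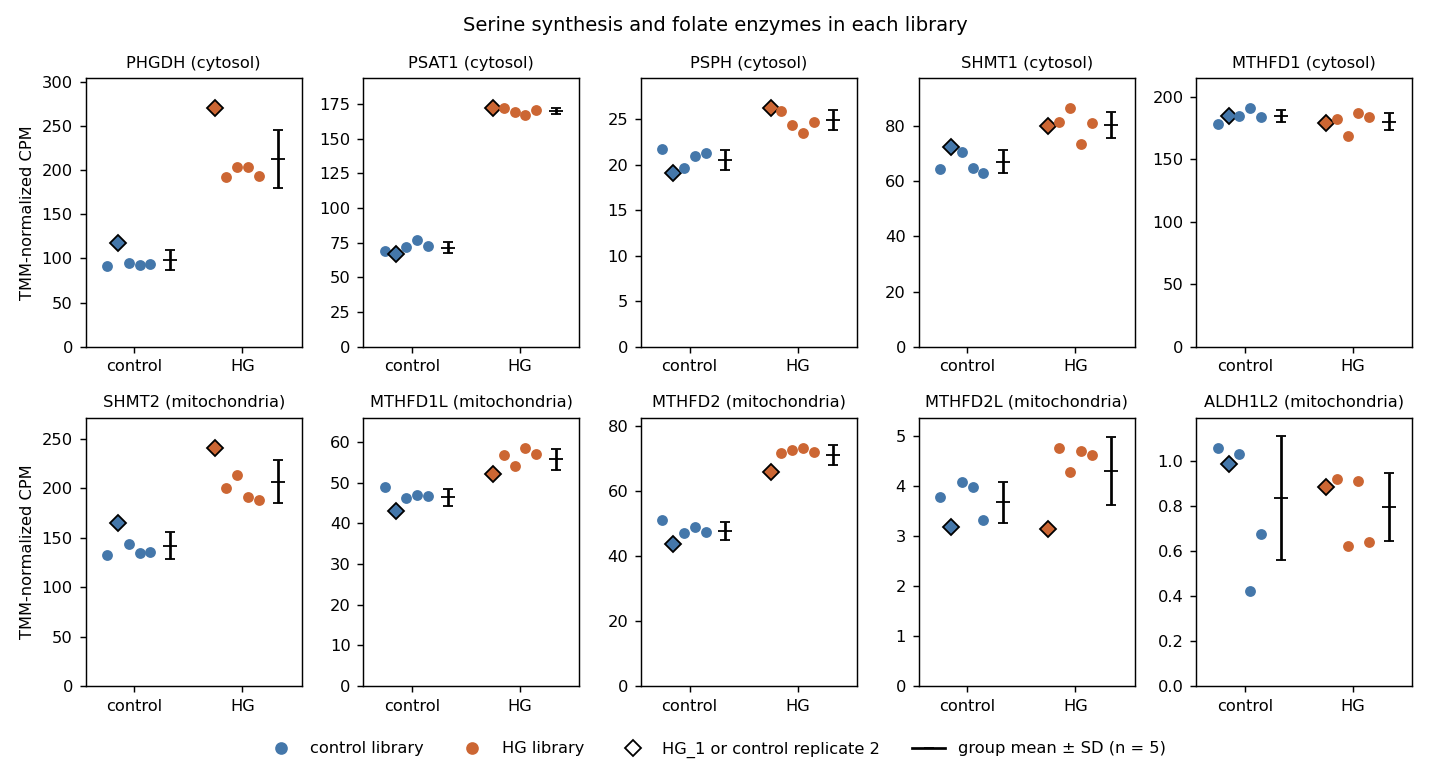
Normalized CPM (vertical axis, from 0, scaled per gene) of the 10 members in each of the 5 control and 5 HG libraries, with diamonds for HG_1 and control replicate 2 and bars for the group mean ± SD. The groups lie apart for PHGDH, PSAT1, PSPH, SHMT1, SHMT2, MTHFD1L and MTHFD2, and overlap for MTHFD1, MTHFD2L and ALDH1L2.

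PHGDH, the dehydrogenase that opens serine synthesis, lies at chr1:119648411-119744226 on the plus strand of GRCh38 (GENCODE release 29). Its normalized CPM was 91.1, 118, 94.3, 93 and 93.6 in control replicates 1 to 5 and 270, 192, 204, 204 and 193 in HG_1 to HG_5. All HG values were above all control values, and the highest library of each group was the one with the steep GC slope. The group means were 98 ± 11.3 and 213 ± 32.7 CPM (SD, n = 5), a log2 fold change of 1.12 (SE 0.107) or 2.17-fold. The log2 fold change was 1.09 without HG_1 and control replicate 2, and 1.14 once each library's trend on GC content had been taken out.

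PSAT1, the aminotransferase of the next step, lies at chr9:78297143-78330093 on the plus strand. In control replicates 1 to 5 its normalized CPM was 69.3, 67.2, 72, 77 and 72.5, and in HG_1 to HG_5 it was 172, 172, 169, 167 and 171. The HG libraries were nearly level with each other and far above every control library. Between 71.6 ± 3.68 and 170 ± 2.06 CPM (SD, n = 5), the log2 fold change was 1.25 (SE 0.0432) or 2.38-fold, the largest of the members and rank 98 among the 14936 rows by signed log2 fold change. The wider spread of PHGDH in HG was carried by HG_1.

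PSPH, the phosphatase that releases serine, lies at chr7:56011051-56051604 on the minus strand. As normalized CPM, it was at 21.7, 19.1, 19.6, 21 and 21.3 in control replicates 1 to 5 and 26.2, 25.9, 24.4, 23.5 and 24.7 in HG_1 to HG_5. The HG libraries were again all above the controls, by a narrower margin than for PHGDH and PSAT1, with HG_1 the highest and control replicate 2 the lowest of their groups. The means were 20.6 ± 1.14 and 24.9 ± 1.12 CPM (n = 5) and the log2 fold change was 0.28 (SE 0.0585), an increase of 21.3%. In FPKM, which divides by transcript length and allows genes to be compared, the ratio of PHGDH to PSPH was 4.5 ± 0.723 in control and 8.32 ± 1.28 in HG, and that of PSAT1 to PSPH was 2.78 ± 0.203 and 5.66 ± 0.208 (SD, n = 5). Neither ratio overlapped between the groups. The ratio of PHGDH to PSAT1 was 1.62 ± 0.253 in control and 1.47 ± 0.225 in HG, and there the groups overlapped. The summed FPKM of the 3 enzymes was 85.7 to 94.4 in control and 182 to 213 in HG.

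The first steps of this route thus showed the largest differences, and the last step a small one. To see what the start regions of the members share, short motifs were searched on both strands in RefSeq promoters (GRCh38.p14, from 250 bases before to 50 after each start). The table held 7 of the 10 members, in 11 entries, and none for PSPH, SHMT2 and ALDH1L2. PSAT1 is shown because it had the largest fold change of the members. Its plus strand from chr9:78297005-78297124, which ends just before the start site and overlaps no annotated exon, holds the letters CCAAT 3 times, in capitals here.
PSAT1: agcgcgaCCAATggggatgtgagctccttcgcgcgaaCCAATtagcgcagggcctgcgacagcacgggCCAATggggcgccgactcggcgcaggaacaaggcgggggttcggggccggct
These copies begin 113, 83 and 52 bases before the start. CCAAT, searched after the other motifs had been seen, was found in 6 of the 7 members (MTHFD1, MTHFD1L, MTHFD2, PHGDH, PSAT1 and SHMT1) and in 39.7% of all 27305 genes in the table. The letters TGATGNAA, a composite element known to be read by ATF4 with a C/EBP partner, were in 1 of the 7, MTHFD1L, and in 4.46% of all genes. They are shown in capitals within chr6:150866346-150866375 (plus strand), a stretch inside the MTHFD1L gene that overlaps an exon of 1 annotated transcript.
MTHFD1L: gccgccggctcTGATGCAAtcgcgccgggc
This match lay 129 and 90 bases before 2 of the start sites listed for MTHFD1L and 24 bases after another. CACGTG, the E-box, was found in MTHFD1 and MTHFD1L and in 8.77% of all genes, and TGACNNNGC, the core of the element read by NRF2, in MTHFD2 and MTHFD2L and in 16.1%. PSAT1 and PHGDH held none of the 3 motifs other than CCAAT in this window. A match describes letters only, and no binding was measured.

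SHMT1, the cytosolic serine hydroxymethyltransferase, lies at chr17:18327860-18363563 on the minus strand. Its normalized CPM was 64.6, 72.4, 70.8, 65 and 63.1 in control replicates 1 to 5 and 80.1, 81.4, 86.5, 73.5 and 81.2 in HG_1 to HG_5. The groups did not overlap, but HG_4 at 73.5 CPM was close to control replicate 2 at 72.4. The means were 67.2 ± 4.14 and 80.5 ± 4.64 CPM (n = 5) and the log2 fold change was 0.26 (SE 0.0576), or 19.9%. In the deposited FPKM the groups overlapped, with 28.3 ± 1.47 in control and 33 ± 2.77 in HG, and SHMT1 was not called by limma on log2(FPKM + 1) or log2(FPKM + 0.1) (log2 fold changes 0.21 and 0.22), but kept its call in the fit on rows with a mean FPKM of at least 1.

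MTHFD1, the cytosolic enzyme that joins 3 folate activities in a single protein, lies at chr14:64388031-64463457 on the plus strand. Normalized CPM values were 178, 185, 185, 191 and 184 in control replicates 1 to 5 and 179, 182, 169, 187 and 184 in HG_1 to HG_5. The groups overlapped almost completely around means of 185 ± 4.85 and 180 ± 6.8 CPM, with a log2 fold change of -0.04 (SE 0.0397). Among the folate enzymes it was thus measured with the smallest SE. Its FPKM spread more widely (40.3 to 57.5), because the length implied by dividing CPM by FPKM differed between libraries by 1.32-fold, against a median of 1.05-fold over rows where no library had fewer than 200 counts. This matters for every ratio with MTHFD1 below. A pseudogene, MTHFD1P1, shared 0.67% of the windows of 100 bases in the longest MTHFD1 coding transcript, and the transcripts of the other 9 members shared 0 such windows with another gene.

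SHMT2, the mitochondrial counterpart of SHMT1, lies at chr12:57229327-57234935 on the plus strand. Its normalized CPM was 132, 165, 144, 134 and 135 in control replicates 1 to 5 and 241, 200, 213, 191 and 188 in HG_1 to HG_5. Every HG library was above every control library, and the highest values were again those of HG_1 and control replicate 2. From 142 ± 13.7 to 207 ± 21.8 CPM (n = 5), the log2 fold change was 0.54 (SE 0.0832) or 1.45-fold. It was 0.54 without these 2 libraries and 0.55 with the GC trend removed.

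MTHFD2, which oxidizes the folate-bound carbon in mitochondria, lies at chr2:74198562-74217565 on the plus strand. Measured in normalized CPM, it was at 51.1, 43.6, 46.9, 49 and 47.3 in control replicates 1 to 5 and 65.9, 71.6, 72.4, 73.3 and 71.9 in HG_1 to HG_5. The groups lay well apart, and here HG_1 and control replicate 2 were the lowest of their groups, the reverse of PHGDH and SHMT2. The means of 47.6 ± 2.78 and 71 ± 2.96 CPM (n = 5) gave a log2 fold change of 0.58 (SE 0.0533) or 1.49-fold. Without these 2 libraries it was 0.58, and with the GC trend removed 0.55.

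MTHFD1L, which releases formate in mitochondria, lies at chr6:150865549-151101887 on the plus strand. Its normalized CPM was 49, 43.1, 46.2, 46.9 and 46.6 in control replicates 1 to 5 and 52.2, 56.8, 54.1, 58.6 and 57.1 in HG_1 to HG_5. All HG values were higher, with HG_1 the nearest to the controls. The means were 46.4 ± 2.12 and 55.8 ± 2.59 CPM (n = 5) and the log2 fold change was 0.27 (SE 0.051), close to those of SHMT1 and PSPH. In FPKM, at 12.7 ± 0.771 and 15.3 ± 1.08, the groups overlapped through HG_1 (13.6) and control replicate 1 (13.7).

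The other 2 mitochondrial members were far less abundant. MTHFD2L, a paralog of MTHFD2 at chr4:74114174-74303099, had 125 to 170 counts per control library and 121 to 197 per HG library. Its CPM was 3.68 ± 0.403 in control and 4.31 ± 0.678 in HG (log2 fold change 0.23, SE 0.143). The groups overlapped through HG_1, the lowest library of all at 3.14 CPM, and not without HG_1 and control replicate 2 (log2 fold change 0.28). The log2 fold change of MTHFD2L was smaller with the GC trend removed (0.18) and with limma on log2(FPKM + 1) (0.13) or log2(FPKM + 0.1) (0.20). ALDH1L2, which oxidizes the folate-bound carbon to carbon dioxide, lies at chr12:105019784-105084577 on the minus strand and had 14 to 44 counts per library. At 0.836 ± 0.278 and 0.796 ± 0.151 CPM (log2 fold change -0.07, SE 0.277), its groups overlapped and the difference was smaller than its SE. Leaving out 1 library moved the log2 fold change of ALDH1L2 to between -0.24 and 0.02, so no direction is read from it.

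**Figure D2:**
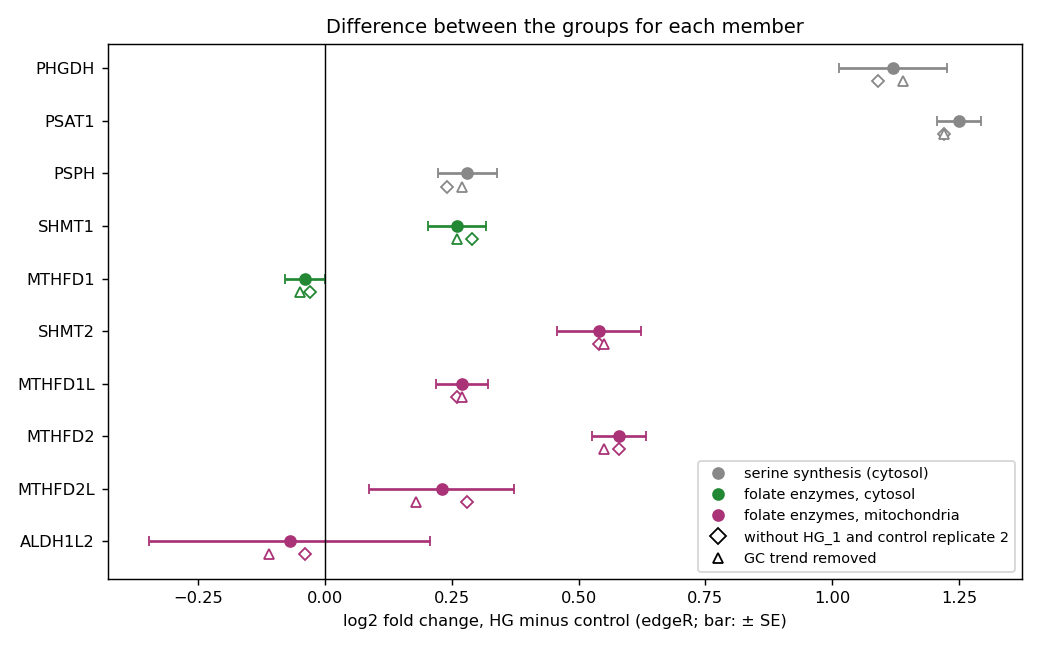
Log2 fold change of each member (horizontal axis, HG minus control, edgeR) with its SE as a bar, and open symbols for the value without HG_1 and control replicate 2 and with the GC trend removed. PSAT1 (1.25) and PHGDH (1.12) lie farthest to the right, SHMT2 (0.54) and MTHFD2 (0.58) follow, and MTHFD1 (-0.04) and ALDH1L2 (-0.07) lie near 0.

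Of the members not yet given without HG_1 and control replicate 2, the log2 fold change was then 1.22 for PSAT1, 0.24 for PSPH, 0.29 for SHMT1 and 0.26 for MTHFD1L. It was -0.03 for MTHFD1 and -0.04 for ALDH1L2.

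Some members overlap other genes on the opposite strand: SHMT1 with SMCR8, MTHFD1 with ZBTB25, SHMT2 with NDUFA4L2, MTHFD2 with SLC4A5 and ALDH1L2 with C12orf45. MTHFD1L and MTHFD2L overlap antisense genes that code for no protein. Whether the counting used strand is not given in the sources used here, so reads of these partners cannot be told apart from reads of the members where they overlap. PHGDH, PSAT1 and PSPH overlapped 0 annotated genes.

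The order of the members' levels was read in FPKM. In control, SHMT2 was highest at 63.2 ± 5.59, above MTHFD1 (49.2 ± 6.73) and PHGDH (48.5 ± 4.7), which overlapped each other. PSAT1 (30.2 ± 2.01) and SHMT1 (28.3 ± 1.47) also overlapped, as did MTHFD1L, MTHFD2 and PSPH (12.7, 12 and 10.9) from neighbour to neighbour, and MTHFD2L (1.44 ± 0.171) and ALDH1L2 (0.0945 ± 0.0315) came last. In HG, PHGDH (106 ± 14.1) and SHMT2 (96.5 ± 8.03) overlapped at the top, followed by PSAT1 (72.2 ± 1.41), MTHFD1 (49.4 ± 5.9) and SHMT1 (33 ± 2.77) with no overlap between neighbours. PHGDH thus stood above SHMT2 in mean level in HG and below it in control, and PSAT1 changed places with MTHFD1 in the same way. MTHFD2 (18.3 ± 1.35), MTHFD1L (15.3 ± 1.08) and PSPH (12.8 ± 0.615) overlapped from neighbour to neighbour in HG as well.

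The cytosolic and mitochondrial folate enzymes were then contrasted. Of the mitochondrial members 3 of 5 were called, of the cytosolic folate enzymes 1 of 2, and of all cytosolic members, with serine synthesis, 4 of 5, beside 15.4% of all rows. Nothing is read from these counts, for the reason given above, and the median log2 fold change was 0.27 for the mitochondrial and 0.28 for all cytosolic members. The mean log2 fold change of the 5 mitochondrial enzymes exceeded that of the 2 cytosolic ones by 0.19. This difference was 0.19 without HG_1 and control replicate 2 and 0.18 with the GC trend removed, and it was 0.29 without ALDH1L2 and 0.35 without ALDH1L2 and MTHFD2L, the low-count members, a choice made after seeing the data. Library by library, the mean log2 CPM of the mitochondrial enzymes minus that of the cytosolic ones was -2.96 to -2.66 in control and -2.69 to -2.50 in HG, so this equally weighted contrast overlapped between the groups.

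Weighted by level, the compartments lay apart. The mitochondrial share of the summed FPKM of the 7 folate enzymes was 56.2%, 56.1%, 54.1%, 50.5% and 51.3% in control replicates 1 to 5 and 66.2%, 59.3%, 60.8%, 60.1% and 61.3% in HG_1 to HG_5. All HG libraries were above all controls, with HG_1 set off from the other HG libraries. The means were 53.6% ± 2.66 and 61.6% ± 2.71 (SD, n = 5), and 53% ± 2.65 and 60.4% ± 0.853 (n = 4) without HG_1 and control replicate 2. The summed FPKM of the mitochondrial enzymes was 86.1 to 97.4 in control and 125 to 140 in HG, whereas that of SHMT1 and MTHFD1 was 67.2 to 84.6 and 71.5 to 88.4, with overlap. Most of the mitochondrial sum, on average 89.6 in control and 132 in HG, came from SHMT2 alone (63.2 ± 5.59 and 96.5 ± 8.03). When the length of each gene was held at its mean over the libraries, the share was 53% to 55.6% in control and 59.4% to 63.8% in HG.

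The paralog pairs were compared next. The FPKM ratio of SHMT2 to SHMT1 was 2.19, 2.56, 2.1, 2.2 and 2.14 in control replicates 1 to 5 and 3.58, 2.62, 2.74, 3.05 and 2.71 in HG_1 to HG_5. The groups did not overlap, although HG_2 at 2.62 was close to control replicate 2 at 2.56. Without HG_1 and control replicate 2 the ratio was 2.1 to 2.2 in control and 2.62 to 3.05 in HG, and with 1 length per gene it was 2.23 to 2.51 and 2.54 to 3.31. The ratio of MTHFD1L to MTHFD1 was 0.263 ± 0.0463 in control and 0.311 ± 0.0228 in HG, and its groups overlapped through control replicate 1 (0.339). With 1 length per gene it was 0.238 to 0.283 in control and 0.299 to 0.328 in HG, with no overlap. The ratio of MTHFD2 to MTHFD2L was 8.44 ± 0.915 and 11 ± 1.6, with an overlap between control replicate 2 (9.87) and HG_2 (9.76). This overlap was gone without HG_1 and control replicate 2, and also with 1 length per gene (7.48 to 9.27 and 9.76 to 13.6). The ratio of MTHFD2 to MTHFD1, 0.213 to 0.303 in control and 0.346 to 0.396 in HG, did not overlap either way.

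**Figure D3:**
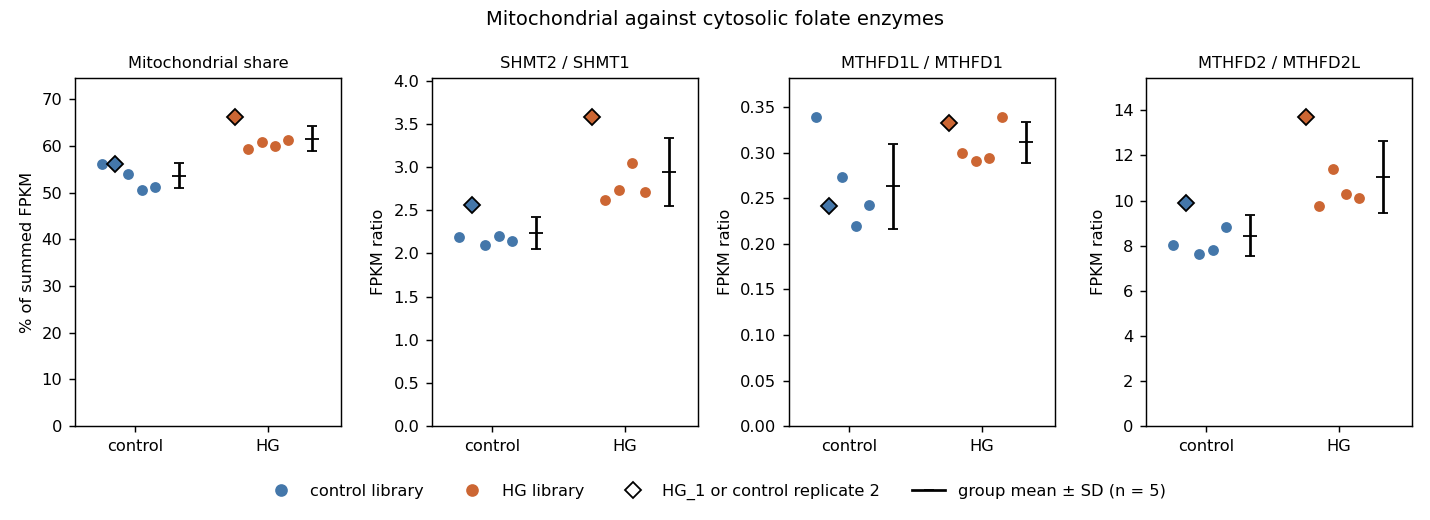
Mitochondrial share of the summed FPKM of the 7 folate enzymes and FPKM ratios of SHMT2 to SHMT1, MTHFD1L to MTHFD1 and MTHFD2 to MTHFD2L (vertical axes, from 0) in each library, with diamonds for HG_1 and control replicate 2 and bars for the mean ± SD (n = 5). The share and the SHMT2 to SHMT1 ratio lie apart between the groups. The other 2 ratios overlap in the deposited FPKM drawn here, and not with 1 length per gene.

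Other genes around these enzymes were taken from 7 lists with 63 genes, 55 of them tested. Of the 55, 13 rose and 3 fell in HG by edgeR's adjusted p, with a median log2 fold change of 0.09. Over all rows tested, 7.62% were higher, 7.80% lower and 15.4% called in either direction, the shares to set beside this count and that of each list. The lists were written with earlier results of these libraries known, and each is given by its counts and median beside the 0.00 of all rows.

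Folate transport and retention had 5 of 7 genes tested, 1 higher and 1 lower, with a median log2 fold change of 0.10. SLC19A1, the reduced folate carrier, was at 11.5, 13.4, 10.1, 10.5 and 12.5 CPM in control replicates 1 to 5 and 9.9, 9.4, 10.1, 8.6 and 8.21 in HG_1 to HG_5. HG values lay at or below the lowest control, with control replicate 3 and HG_3 both at 10.1. Its log2 fold change was -0.33 (SE 0.0989, edgeR adjusted p = 0.0475), and the adjusted p was 0.0539 without HG_1 and control replicate 2. It was above 0.05 in 8 of the 10 fits that left out 1 library, where the log2 fold change was -0.37 to -0.27, and also without a filter (0.0677) and with limma on log2(FPKM + 0.1) (0.0585). GGH, which shortens folate polyglutamates, was at 75.2 ± 3.14 CPM in control and 93.9 ± 2.4 in HG, with all HG libraries higher (log2 fold change 0.32, SE 0.0426, edgeR adjusted p = 0.000771). FOLR1, with at most 8 counts, and FOLR2, with 0 in all libraries, were not tested.

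Of 9 tested folate enzymes of the cytosol outside the members, 2 were higher and 1 lower, with a median of 0.04. TYMS, which spends the carbon on thymidylate, fell from 121 ± 5.69 to 96.9 ± 7.11 CPM (log2 fold change -0.32, SE 0.0578, edgeR adjusted p = 0.00393), with groups that did not overlap. ATIC of purine synthesis had a log2 fold change of 0.15 (SE 0.044, edgeR adjusted p = 0.0403), and its adjusted p was above 0.05 in 8 of the 10 fits that left out 1 library. FTCD was not tested (0 to 16 counts).

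Of 10 tested mitochondrial folate and glycine genes outside the members, 1 was called, GCSH of the glycine cleavage system, with a log2 fold change of 0.34 (SE 0.097, edgeR adjusted p = 0.04) and groups that overlapped. The median of the list was 0.08, beside 0.27 for the mitochondrial members. GCSH lost its call in 9 of the 10 fits that left out 1 library and without HG_1 and control replicate 2 (adjusted p = 0.0644). SARDH and DMGDH, with at most 19 counts, were not tested.

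Among 5 tested carriers of serine uptake, SLC1A4 was higher (16.7 ± 0.668 against 21.6 ± 2.04 CPM, log2 fold change 0.37, SE 0.0731, edgeR adjusted p = 0.00683), and the median was 0.13. SLC38A4 (0 counts in all libraries) and SLC7A10 (at most 4 counts) were not tested. Of 13 tested genes that use serine, 3 rose and 1 fell, with a median of 0.07, and SDS was not tested (0 to 9 counts). CTH, which releases cysteine from cystathionine, was at 8.13, 7.69, 7.6, 6.69 and 7.93 CPM in control replicates 1 to 5 and 13.7, 17.6, 17.3, 15.9 and 13.7 in HG_1 to HG_5. All HG libraries were above the controls, and the log2 fold change of 1.04 (SE 0.0968, edgeR adjusted p = 0.000122) was of the size seen for PHGDH and PSAT1. SPTLC3 of sphingolipid synthesis (0.46) and SERINC5 (0.37) rose and PTDSS1 of phosphatidylserine synthesis (-0.25) fell, by log2 fold change, each without overlap.

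In glycolysis around the branch to serine, 2 of 8 genes were called, with a median of 0.17. PGK1, which makes the substrate of PHGDH, rose from 574 ± 23.5 to 811 ± 64.4 CPM (log2 fold change 0.50, SE 0.0587, edgeR adjusted p = 0.00038), and ENO2 rose by a log2 fold change of 0.39 (SE 0.0828, edgeR adjusted p = 0.00924). This count was 5 of 8 without HG_1 and control replicate 2, and 4 with the GC trend removed.

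Of 5 transcription regulators, 3 rose, with a median of 0.31: CEBPG, ATF4 and CEBPB, where ATF4 is known to drive genes of amino acid supply together with C/EBP proteins. CEBPG was at 16.3, 17.3, 16.3, 15.3 and 15.8 CPM in control replicates 1 to 5 and 21.9, 29.3, 30.4, 29.7 and 26.3 in HG_1 to HG_5. No HG library reached down to the controls, and HG_1 was the lowest of the HG group. The log2 fold change was 0.76 (SE 0.09, edgeR adjusted p = 0.000383). ATF4 was at 283 ± 23.7 and 373 ± 37.4 CPM (log2 fold change 0.40, SE 0.0768, edgeR adjusted p = 0.00583), also without overlap. Without HG_1 and control replicate 2 the log2 fold changes were 0.86 for CEBPG and 0.39 for ATF4. CEBPB had a log2 fold change of 0.31 (SE 0.0921, edgeR adjusted p = 0.0449) with overlapping groups, and its adjusted p was above 0.05 in 8 of the 10 fits that left out 1 library.

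**Figure D4:**
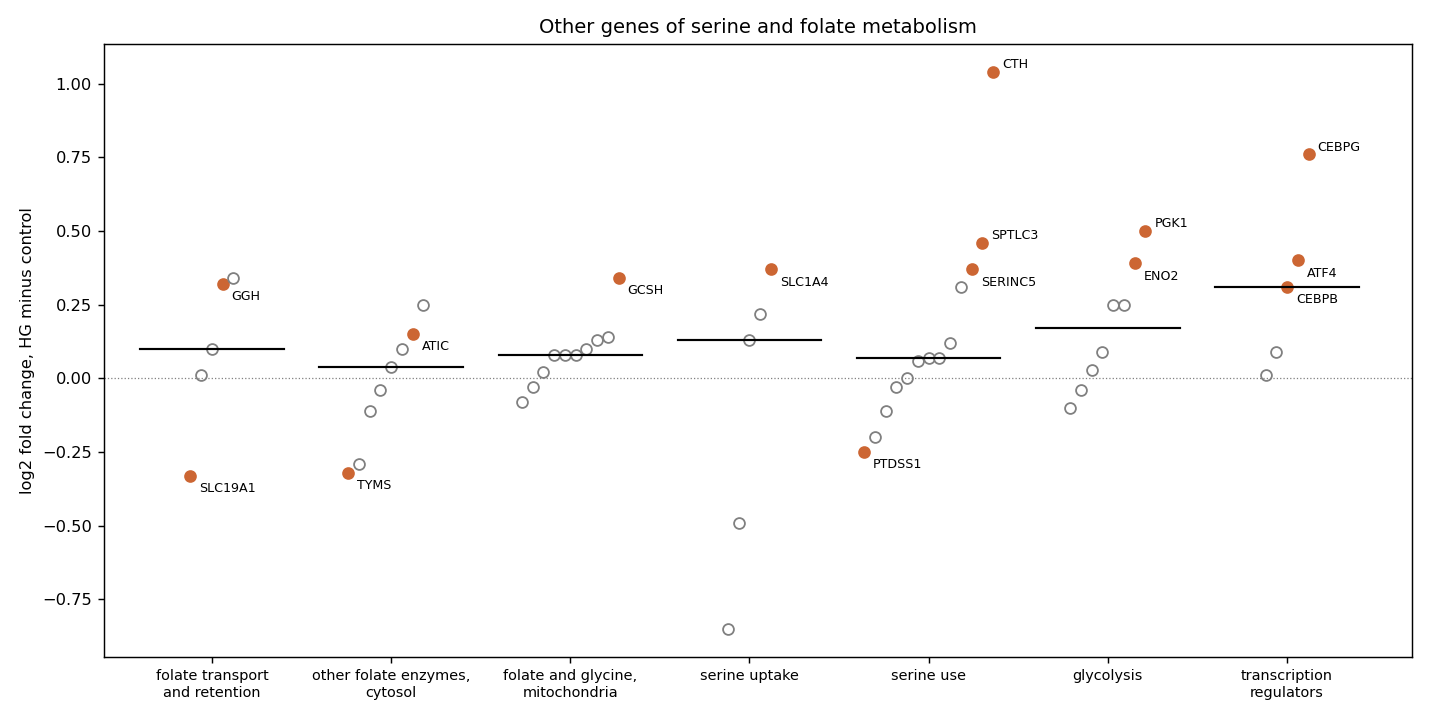
Log2 fold change (vertical axis, HG minus control, edgeR) of tested genes in the 7 lists of other genes (1 cytosolic folate enzyme is not drawn), with filled and named points for an edgeR adjusted p under 0.05 and a line at the median of each whole list. CTH (1.04) and CEBPG (0.76) lie highest, and SLC19A1 (-0.33) is the lowest of the called genes.

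The genes whose log2 CPM was most like the members' mean profile over the 10 libraries, by Pearson's r with the mean of the members' z-scores, were ASNS (0.979), BLOC1S2 (0.978), DUSP4 (0.977), ALDH9A1 (0.975) and UBE2G2 (0.974). The profile holds the difference between the groups that chose the members, and all points share their libraries, so these values are a description. ASNS, the asparagine synthetase, was at 23.2 ± 0.874 CPM in control and 76 ± 3.57 in HG (log2 fold change 1.72, SE 0.0505), a larger difference than that of any member. The other 4 differed less, with log2 fold changes of 0.12 to 0.38.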

How the data were processed

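RNA of 10 ARPE-19 libraries was sequenced by a company. The authors deposited read counts (whole numbers per gene, not normalized) and FPKM values, which they had scaled by transcript length and library size. The submitters' processing notes name fastp 0.20.1, HISAT2 2.2.1 and GRCh38; the counting program, annotation and strand setting are not given in the sources used here. The members and lists were chosen with earlier results of these data known. Counts were compared in R 4.3.3 with edgeR 4.0.16 (default filter, TMM, quasi-likelihood test, Benjamini-Hochberg adjustment over 14936 rows, threshold 0.05). Log2 CPM used a prior count of 2, and 3 counts correspond to 0.0669 to 0.0912 CPM. All pairs of libraries within a group differed by more than sampling noise. The fits were tested on simulated counts.

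Alternatives were DESeq2 1.42.0, RLE factors, library size without other factors, no filter, a filter of 10 counts per library, limma 3.58.1 on log2(FPKM + 1) and log2(FPKM + 0.1) and with a mean FPKM of at least 1, each library left out, HG_1 and control replicate 2 left out, and 1 surrogate variable (sva 3.50.0). Removal of the GC trend (lowess, span 0.3, on the longest coding transcript in GENCODE release 29), 1 length per gene, contrasts without low-count members, and CCAAT were chosen after seeing the data. Named genes were taken from the members, SLC19A1, ATF4, up to 4 called genes per list by absolute log2 fold change, untested genes of the lists, the markers, and the 5 genes most like the members. The planned comparison of protein sequences was not run.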

Additional observations from a re-analysis of the deposited data

Results flagged for a closer look

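In 74 groups of 5 values (named genes in CPM and the FPKM ratios, per group), 10 had a library far from the other 4; chance alone marks about 1 in 20 groups, or 3.7. All 10 of these libraries were HG_1 or control replicate 2, the pair with a steep slope on GC content. In control replicate 2, PHGDH was at 118 CPM (others 91.1 to 94.3), ATF4 at 325 CPM (others 267 to 277), the SHMT2 to SHMT1 ratio at 2.56 (others 2.1 to 2.2) and the PHGDH to PSAT1 ratio at 2.06 (others 1.41 to 1.56). In HG_1, PHGDH was at 270 CPM (others 192 to 204), CEBPB at 98.3 CPM (others 73.4 to 78.8), MTHFD2 at 65.9 CPM, below the others at 71.6 to 73.3, and the PHGDH to PSAT1 ratio at 1.86 (others 1.3 to 1.44). Also in HG_1, the mitochondrial share of folate enzyme FPKM was 66.2% (others 59.3% to 61.3%) and the summed FPKM of the serine synthesis enzymes 213 (others 182 to 188). Several of the ratios share genes, so these values are not independent of each other. Without both libraries, the log2 fold change was 0.39 for ATF4 and 0.28 for CEBPB, the mean PHGDH to PSAT1 ratio was 1.51 in control and 1.37 in HG, and the mean summed FPKM of serine synthesis 88.4 and 185.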

How the results depend on the processing

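The members were chosen on this contrast in these libraries, so their calls over refits say nothing of how firm they are; SHMT1 lost its call with limma on log2(FPKM + 1) (0.21) and log2(FPKM + 0.1) (0.22). Rows called over all genes numbered 2303, and 4035 without HG_1 and control replicate 2, 5030 with 1 surrogate variable and 3459 with the GC trend removed (of these higher in HG, 1138, then 1984 without both libraries and 2528 with the surrogate variable); leaving out 1 library gave 1648 to 2993. The 7 members called were 6 in both limma fits where SHMT1 lost its call. The excess of mitochondrial over cytosolic folate enzymes, 0.19, was 0.17 to 0.23 with 1 library left out and 0.35 without ALDH1L2 and MTHFD2L. The 16 other pathway genes called were 27 with 1 surrogate variable. By list, folate transport had 2 calls, and 1 without a filter, 1 with limma on log2(FPKM + 0.1) and 1 to 2 with a library left out. This list had 3 calls with DESeq2, limma with a mean FPKM of at least 1, 1 surrogate variable, and the GC trend removed. Other mitochondrial genes had 1, then 0 to 1 with a library left out, 2 with 1 surrogate variable and 2 with the GC trend removed. Serine uptake had 1, then 2 with 1 surrogate variable; serine use 4, then 9 with it. Glycolysis had 2, then 4 with DESeq2, 4 with library size alone, 2 to 4 with a library left out (4 without control replicate 2), 5 without HG_1 and control replicate 2, 4 with 1 surrogate variable and 4 with the GC trend removed. Other named genes kept their call in 298 of 336 fits by genes and lost it in 38, and 0 reversed. The cause of these changes was not tested. Depth limits ALDH1L2 most, with 14 to 44 counts. No overlap of groups was computed with the surrogate variable, and proteins were not compared. No paired analysis was possible because nothing in the labels links an HG sample to a control replicate.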
